A study of Homo sapiens with 48 samples.

Results

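The 10 immediate early genes described here are FOS, FOSL2, JUN, JUNB, JUND, EGR1, IER2, IER5, MYC and KLF10, chosen as the rows of the count tables whose Ensembl identifiers map to these symbols. All 10 were present among the 14685 genes in the tables. They were measured by RNA sequencing in HEK293T cells, a human embryonic kidney line, in 48 libraries with 4 libraries for each of 4 arms at 3, 6 and 12 h. All arms, the controls included, were transfected with a plasmid for wild-type NCBP1, the larger of the proteins that bind the cap of nuclear transcripts, fused to a Halo tag. In T-REX, a Halo-bound photocaged precursor, Ht-PreHNE, releases the lipid-derived electrophile HNE beside the fusion protein when the cells are lit, so that NCBP1 becomes HNEylated. The 3 controls were light alone, probe alone (precursor without light) and DMSO (vehicle without light). The labels call the light alone arm a UV control, whereas the Methods list both precursor and light for it, so what these cells received is uncertain. The comparisons asked whether HNEylation of NCBP1 changed RNA levels beyond each control and how this moved with time. The transfected line is a transient overexpression model, and the 4 libraries of a group came from independent biological replicates per the series' design.

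Immediate early genes are transcribed within minutes of a stimulus without new protein synthesis, through factors such as SRF with its ELK partners and CREB that are already bound or are activated by MAP kinases. Many of their transcripts are short-lived, since AU-rich elements recruit decay factors, and a burst normally fades before the time points measured here. FOS and FOSL2 encode Fos proteins that pair with the Jun proteins encoded by JUN, JUNB and JUND to form the AP-1 transcription factor. EGR1 and KLF10 encode zinc finger factors, the latter a TGF-beta inducible repressor. MYC encodes a growth-promoting factor that dimerizes with MAX, and IER2 and IER5 encode nuclear regulators of the immediate early response.

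Start sites of 8 of the 10 genes were found in RefSeq (build GRCh38.p14). The 250 bases before the start are printed for 5 members, the 3 Jun genes, which moved together between libraries, and the classic stimulus-response genes EGR1 and FOS. Capitals mark matches on either strand to the cyclic AMP response element TGACGTCA, to its core TGACG, to the AP-1 site TGANTCA and to the CArG box to which SRF binds. A full element holds 2 overlapping cores. JUN is at chr1:58784048-58784297 (minus strand), JUNB at chr19:12791236-12791485 (plus), JUND at chr19:18281623-18281872 (minus), EGR1 at chr5:138465229-138465478 (plus) and FOS at chr14:75278578-75278827 (plus).
JUN: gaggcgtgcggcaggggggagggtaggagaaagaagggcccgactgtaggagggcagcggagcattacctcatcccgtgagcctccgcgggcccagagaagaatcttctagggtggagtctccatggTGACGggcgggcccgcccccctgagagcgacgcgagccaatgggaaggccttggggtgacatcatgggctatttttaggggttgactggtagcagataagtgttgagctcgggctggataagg
JUNB: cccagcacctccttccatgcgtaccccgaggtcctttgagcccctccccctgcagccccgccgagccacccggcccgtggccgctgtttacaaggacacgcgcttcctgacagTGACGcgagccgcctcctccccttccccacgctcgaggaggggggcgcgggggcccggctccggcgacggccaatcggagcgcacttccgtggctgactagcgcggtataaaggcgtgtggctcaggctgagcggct
JUND: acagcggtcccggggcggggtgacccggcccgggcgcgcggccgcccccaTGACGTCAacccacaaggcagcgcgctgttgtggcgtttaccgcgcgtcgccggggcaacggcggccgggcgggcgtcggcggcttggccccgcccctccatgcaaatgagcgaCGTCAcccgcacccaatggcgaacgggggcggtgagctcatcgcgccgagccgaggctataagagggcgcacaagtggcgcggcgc
EGR1: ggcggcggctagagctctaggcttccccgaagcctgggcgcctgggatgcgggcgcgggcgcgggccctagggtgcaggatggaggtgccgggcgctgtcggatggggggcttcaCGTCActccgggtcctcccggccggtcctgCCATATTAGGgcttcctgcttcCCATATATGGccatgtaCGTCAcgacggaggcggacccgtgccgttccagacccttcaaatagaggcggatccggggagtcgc
FOS: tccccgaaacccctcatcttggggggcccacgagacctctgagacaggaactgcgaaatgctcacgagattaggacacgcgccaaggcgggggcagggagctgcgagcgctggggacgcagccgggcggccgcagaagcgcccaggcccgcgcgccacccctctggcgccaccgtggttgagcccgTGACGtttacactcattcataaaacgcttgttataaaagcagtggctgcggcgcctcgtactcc
Of the 8 members matched, JUND alone held the full response element, which 1.65% of 35116 promoters of this length hold. EGR1 held 2 CArG boxes in this window, against 1.16% of all promoters with 1 or more. A core stood in the window of each of these 5 genes, and in 21.2% of all promoters. No AP-1 site letters were found in these 5 windows, and 6.57% of all promoters have them.

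Library depth ranged from 23952455 to 37099535 counts. Of 8 HEK293T check genes, VIM and LIN28B were highest (436.9 to 667.9 and 144.8 to 233.1 CPM, that is read counts scaled to library size). CDH2, NEFL and NEFM had medians of 78, 58 and 31 CPM. KRT18 and KRT8 were low, with medians of 10.1 and 7.78 CPM, and PAX2 was not among the counted genes. Of 8 markers of other cell types, COL1A1 alone was in the tables, at 2.13 to 6.07 CPM. Per kilobase of exon, the median level over the 48 libraries was 23.6 CPM for MYC, 18.6 for JUN, 14.4 for KLF10, 8.57 for JUND and 5.88 for IER5. It was 2.08 for FOSL2, 2.0 for IER2, 1.95 for EGR1, 0.979 for FOS and 0.933 for JUNB. MYC exceeded JUN in 43 of 48 libraries, and IER5 exceeded FOSL2 in all 48. The neighbours FOSL2 and IER2 (30 of 48), IER2 and EGR1 (29 of 48) and FOS and JUNB (30 of 48) did not hold their order. In percentile terms, MYC per kilobase stood above 89.5% of all genes with a known length, and JUNB above 11.5%. FOS was counted with 53 to 143 reads a library and JUNB with 16 to 211, the lowest counts among the members.

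Libraries of 1 arm differed widely for some members and little for others. For JUNB at 3 h, the T-REX libraries read 0.760, 0.979, 5.67 and 6.39 CPM in replicates 1 to 4, and those of light alone read 1.24, 7.29, 5.48 and 0.823 CPM. In each of these 2 arms, 2 libraries were low and 2 were several-fold higher, and the arms overlapped. JUND at 3 h split the same way, with 14, 10.2, 32.6 and 26.3 CPM in T-REX and 11.4, 26.5, 29 and 12.5 CPM in light alone. The highest library exceeded the lowest of its group by up to 8.86 times for JUNB, 3.19 for JUND, 2.31 for FOS, 2.22 for IER2, 2.07 for EGR1 and 2.01 for JUN. For KLF10 the same ratio never passed 1.24, the smallest among the members. The fitted biological coefficient of variation was 49.3% for JUNB and 6.2% for KLF10, beside trends of 19.2% and 7.8% for genes at their levels.

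KLF10 had the lowest ratio of highest to lowest library among the members, and its T-REX mean was the lowest of the 4 arms at all 3 times. At 3 h, T-REX libraries read 50.2, 51.1, 55.6 and 45.2 CPM, light alone 63, 58.4, 58.9 and 62.9 CPM, probe alone 55.5, 59.2, 60.3 and 58.6 CPM and DMSO 59.4, 60.3, 58.5 and 56.8 CPM. T-REX lay below light alone and DMSO without overlap, and overlapped probe alone through 1 library. KLF10 fell against DMSO at 3 h (log2 fold change -0.21 ± 0.06 SE, edgeR adjusted p = 0.0323). At 6 h the means were 51.7 ± 2.91 CPM in T-REX, 56.6 ± 3.94 in light alone, 55.9 ± 3.01 in probe alone and 62.5 ± 5.96 in DMSO (SD, n = 4). T-REX (48.4 to 55.1 CPM) then overlapped light alone (50.8 to 59.2) and probe alone (51.9 to 59.2) and lay just below DMSO (55.2 to 68.5). At 12 h, T-REX read 52.9, 48.6, 51.5 and 51.2 CPM, below every library of light alone (53.9, 56.5, 61.3 and 66.1), probe alone (62, 55.1, 58 and 58.5) and DMSO (61.9, 57.8, 55.4 and 63.5). The call at 12 h was again against DMSO (-0.23 ± 0.06, edgeR adjusted p = 0.0260). Against light alone the values were -0.27, -0.13 and -0.22 at 3, 6 and 12 h, and against probe alone -0.19, -0.11 and -0.20, none called (edgeR adjusted p from 0.0580 to 0.843). The log2 fold change was negative in all 9 comparisons, which share the T-REX libraries within a time. With DESeq2 the gene was also called against light alone at 3 and 12 h (adjusted p = 0.00695 and 0.0479), probe alone at 3 h (0.0386) and DMSO at 6 h (0.0228). With the 2 groups compared alone in the fit, neither DMSO call held (edgeR adjusted p = 0.119 and 0.0871), and light alone at 12 h was called (0.0122). With the deposited factors of unwanted variation as covariates, KLF10 was called against all 3 controls at 3 and 12 h and against DMSO at 6 h (edgeR adjusted p from 2.84e-04 to 0.0174). A GC content correction, chosen after seeing the data, called it against all 3 controls at 3 h, DMSO at 6 h, and light alone and DMSO at 12 h (0.00689 to 0.0480). Leaving out 1 library ended the 3 h call for T-REX replicates 2 and 4 and for each DMSO replicate, and the 12 h call for T-REX replicates 2, 3 and 4 (edgeR adjusted p from 0.0508 to 0.0976).

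At 3 h, 1 of the 10 members was called against DMSO (KLF10, lower), where 5.99% of all genes tested were called. None was called against light alone (0.197% of all genes) or probe alone (1.05%). There 1 and 3 members had an unadjusted p of at most 0.05, beside 14.8% and 18.0% of all genes. DESeq2 called 1 each and limma-trend none, with no share of all genes given for either. Among the Jun genes, JUN averaged 79.2 ± 27.6 CPM in T-REX, 64.4 ± 22.4 in light alone, 52.4 ± 4.10 in probe alone and 51.1 ± 5.31 in DMSO (SD, n = 4). T-REX libraries of JUN read 56.5, 57.4, 114 and 89.3 CPM, and those of light alone 47.1, 85.4, 81.9 and 43 CPM. In each of these 2 arms, 2 libraries were low and 2 higher, and the arms overlapped. Probe alone ran from 48.5 to 56.9 CPM and DMSO from 46 to 57.7 CPM. The log2 fold changes of JUN were 0.30 ± 0.26, 0.61 ± 0.27 and 0.64 ± 0.27 for the 3 controls in that order. JUNB and JUND had 1.78 ± 0.87 and 0.92 ± 0.41 against probe alone, with adjusted p of 0.305 and 0.261 in edgeR. With the deposited factors of unwanted variation (RUV) as covariates, 5 members were called in this comparison, JUNB (1.23, edgeR adjusted p = 3.10e-04), JUND (0.83, 0.00822), JUN (0.57, 0.00426) and IER2 (0.41, 0.0183) higher and KLF10 (-0.20, 0.00490) lower. The share of all genes called in that fit is not given here, so this count has no background beside it. FOS averaged 3.11 ± 1.12 CPM in T-REX beside 3.12 ± 0.233 in light alone, and FOSL2 14.3 ± 1.36 beside 15.5 ± 1.85. EGR1 had the same mean in T-REX and light alone (6.95 ± 2.21 and 6.95 ± 0.419 CPM), and MYC differed from each control by at most 0.06 on the log2 scale. IER2 was 0.69 ± 0.27 against DMSO (adjusted p = 0.147 with edgeR and 0.0490 with DESeq2), and IER5 lay within 0.07 of each control. IER2 libraries read 6.19, 6.31, 13.7 and 8.81 CPM in T-REX and 5.11, 5.70, 6.90 and 4.09 CPM in DMSO, and the groups overlapped. FOSL2, for its part, read 12, 12.4, 13.4 and 12.4 CPM in probe alone and 16.3, 15.5, 17.2 and 12.9 CPM in light alone, with T-REX between them on average. The median log2 fold change of the members was -0.02, 0.22 and 0.19 in the same order, with all-gene medians of 6.31e-04, 0.0235 and 0.0309.

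At 6 h, 1 member was called against DMSO (JUNB, lower, with 0.415% of all genes called) and none against light alone (0.218%) or probe alone (0.109%). Against these 2 controls no member had an unadjusted p of at most 0.05, beside 11.7% and 6.56% of all genes. Neither DESeq2 nor limma-trend called one there. JUNB read 1.03, 0.986, 1.53 and 1.79 CPM in T-REX and 5.32, 2.45, 5.41 and 2.52 CPM in DMSO, and these groups did not overlap. Light alone read 1.98, 1.51, 1.85 and 1.92 CPM and probe alone 1.0, 1.67, 1.74 and 1.64 CPM, both also below every DMSO library. JUNB fell by 1.55 on the log2 scale against DMSO (SE 0.28, edgeR adjusted p = 0.00935). Light alone and probe alone had -1.10 ± 0.27 and -1.37 ± 0.27 against DMSO, uncalled at edgeR adjusted p of 0.153 and 0.0859. The T-REX call was lost without T-REX replicate 1, T-REX replicate 2 or DMSO replicate 1 (adjusted p = 0.0575, 0.0633 and 0.0613 in edgeR). HOOK2, which overlaps JUNB on the opposite strand in GENCODE 29, was 0.21 ± 0.18 in the same comparison (edgeR adjusted p = 0.696), and its reads cannot be told apart from those of JUNB if the counting ignored strand. Of the 10 members, 9 had a negative log2 fold change against DMSO at 6 h.

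IER5 at 6 h read 28.7, 27.9, 28.8 and 28.8 CPM in DMSO and 24.5, 23.9, 25 and 22.3 CPM in T-REX, without overlap (-0.26 ± 0.08, edgeR adjusted p = 0.130). Light alone (20.2 to 24 CPM) and probe alone (22.6 to 26 CPM) also lay below every DMSO library (-0.34 and -0.21, uncalled in edgeR). EGR1 read 6.75, 9.44, 6.94 and 7.34 CPM in DMSO and 5.0, 5.88, 5.10 and 6.39 CPM in T-REX, also without overlap (-0.45 ± 0.14, adjusted p = 0.160 in edgeR). For EGR1, probe alone (5.83 to 6.63 CPM) lay below every DMSO library too, while light alone (5.64 to 7.70 CPM) overlapped DMSO. In T-REX against DMSO, JUN, JUND, IER2 and KLF10 had -0.26, -0.59, -0.47 and -0.27, none called. FOS and FOSL2 had -0.27 and -0.16, and MYC was the member with a positive value (0.09). In all, 7 members had an unadjusted p of at most 0.05 against DMSO at 6 h, beside 12.4% of all genes, and the members' median was -0.27 where that of all genes was -0.00185. The members' medians in light alone and probe alone against the same DMSO libraries were -0.30 and -0.25.

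By 12 h, 2 members were called against DMSO (JUND and KLF10, both lower), and 10.9% of all genes were called. None was called against light alone (1.29%) or probe alone (0.701%). There 1 and 4 members had an unadjusted p of at most 0.05, beside 12.9% and 11.1% of all genes. DESeq2 called 1 each (KLF10 and EGR1) and limma-trend none, again with no share of all genes given. JUND read 14.3, 15.9, 15.1 and 16.2 CPM in T-REX and 30.7, 18, 32.8 and 15.3 CPM in DMSO, so that 2 DMSO libraries stood well above the rest and the groups overlapped. The log2 fold change of JUND was -0.66 ± 0.18 (edgeR adjusted p = 0.0234), and without DMSO replicate 3 it was -0.47 (adjusted p = 0.10 in edgeR). The call was also lost without DMSO replicate 1 or T-REX replicate 1 or 3, and with the 2 groups fitted alone (adjusted p = 0.0964 in edgeR). Light alone and probe alone gave -0.56 and -0.49 for JUND against the same DMSO libraries, uncalled. EGR1 read 5.09, 3.16, 4.65 and 4.94 CPM in T-REX and 5.31, 5.95, 7.55 and 8.57 CPM in probe alone, without overlap (-0.61 ± 0.17, edgeR adjusted p = 0.0943). MYC averaged 76.6 ± 2.15 CPM in T-REX, 83.2 ± 8.42 in light alone, 69.6 ± 2.55 in probe alone and 84.9 ± 6.34 in DMSO (SD, n = 4). T-REX lay above every probe alone library and between probe alone and the other 2 arms on average. JUNB read 1.24, 1.33, 1.39 and 2.44 CPM in T-REX and 4.70, 1.95, 3.74 and 0.857 CPM in DMSO, overlapping (-0.80 ± 0.37, edgeR adjusted p = 0.173). FOS, FOSL2, JUN, IER2 and IER5 had -0.26, 0.20, -0.06, 0.12 and -0.10 against DMSO, none called. The members' median log2 fold change was -0.11, -0.15 and -0.19 in the same order of controls, beside all-gene medians of 9.13e-04, 0.00138 and 0.00313.

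**Figure D1:**
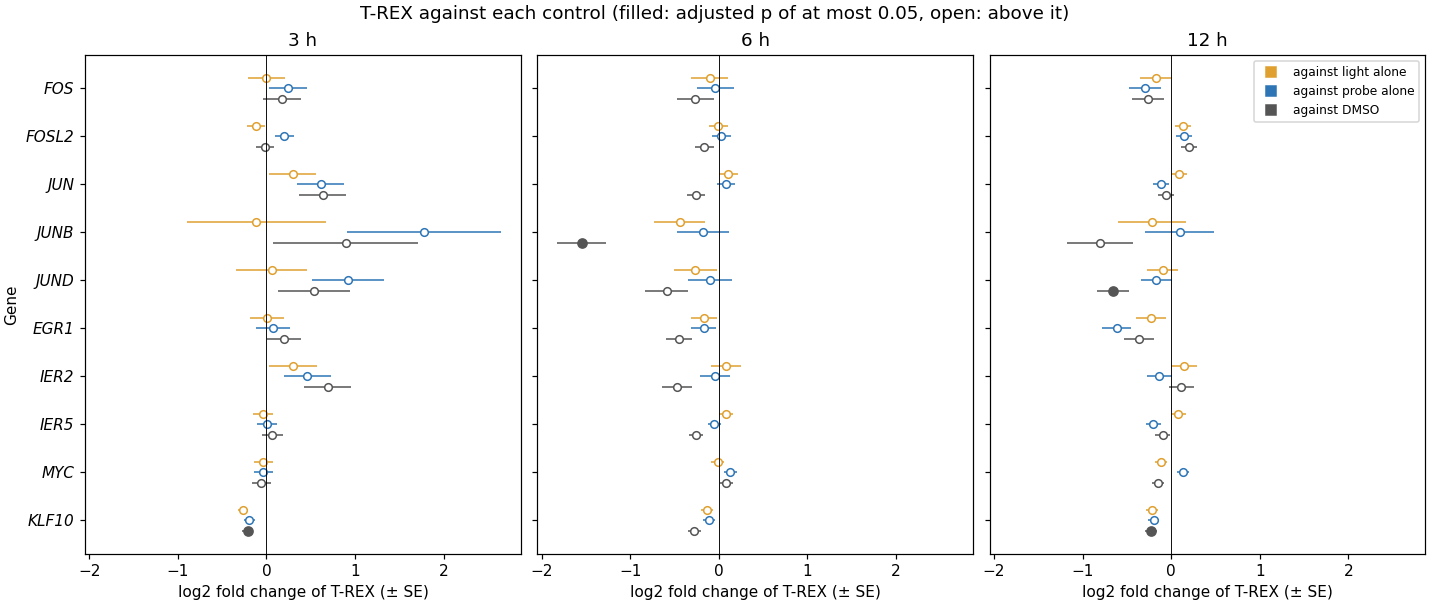
Log2 fold change of T-REX against each control (x axis, ± SE) for each gene (y axis) at 3, 6 and 12 h; filled points had an edgeR adjusted p of at most 0.05. The filled points are KLF10 at 3 and 12 h, JUNB at 6 h and JUND at 12 h, all against DMSO and all below 0.

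The controls were compared with each other to show what light or probe did to the same genes. Light alone against DMSO gave 0 called members at 3, 6 and 12 h (0.00681%, 0.00681% and 0.0136% of all genes). In this comparison 0, 4 and 2 members had an unadjusted p of at most 0.05, beside 7.78%, 14.4% and 10.4% of all genes. DESeq2 called 3 there at 6 h (IER5, JUNB and JUN, all lower), and limma-trend called none. The shares of all genes that DESeq2 called between controls are not given here, so its counts have no background beside them. Probe alone against DMSO gave 0, 0 and 1 called members (0.00681%, 0.0272% and 5.11% of all genes). An unadjusted p of at most 0.05 was reached by 1, 5 and 3 members, beside 5.11%, 8.21% and 23.3% of all genes. DESeq2 made 1 call at 6 h, JUNB (limma-trend none at 3 and 6 h). The called gene was MYC at 12 h, with 67.4, 70.9, 72.6 and 67.6 CPM in probe alone and 90.9, 89.7, 80.5 and 78.4 CPM in DMSO, without overlap (-0.28 ± 0.07, edgeR adjusted p = 0.0146). That call was lost without probe alone replicate 1 (adjusted p = 0.0529 in edgeR) and with the 2 groups alone in the fit (0.111). Light alone against probe alone gave 0 called members at each time (0.232%, 0.0613% and 0.415% of all genes). Of the members, 2, 0 and 4 had an unadjusted p of at most 0.05, beside 14.03%, 8.42% and 12.64% of all genes. DESeq2 made 1 call there at 12 h, MYC (limma-trend none). KLF10 differed by at most 0.07 between controls at 3 h and by at most 0.03 at 12 h, against -0.19 to -0.27 and -0.20 to -0.23 for T-REX against them. At 6 h, light alone and probe alone had -0.14 and -0.16 for KLF10 against DMSO.

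The course over time within each arm was read from the raw counts of the 3 tables fitted together, and harvest or library batch cannot be told apart from time. IER5 rose from 3 to 12 h in all 4 arms. Its means moved from 20.8 ± 3.80 to 28.6 ± 2.87 CPM in T-REX, from 21.4 ± 0.879 to 27.1 ± 3.01 in light alone, from 21 ± 3.25 to 32.8 ± 2.94 in probe alone and from 19.9 ± 1.15 to 30.6 ± 0.991 in DMSO (SD, n = 4). The log2 fold changes were 0.46, 0.34, 0.65 and 0.62, with edgeR adjusted p between 2.07e-07 and 0.00348. At 6 h against 3 h, IER5 rose in DMSO (0.52 ± 0.09), while T-REX, light alone and probe alone had 0.20, 0.08 and 0.24, uncalled.

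In T-REX, 1 member was called at 6 h against 3 h (23.3% of all genes) and 3 at 12 h against 3 h (41.7%). IER2 fell at 6 h (-0.63 ± 0.20, edgeR adjusted p = 0.0182), and without T-REX 3 h replicate 3, whose 13.7 CPM was the highest of all libraries, the value was -0.33 (adjusted p = 0.246 in edgeR). EGR1 fell at 12 h (-0.64 ± 0.17, adjusted p = 0.00262 in edgeR), a call kept without any single library. Its T-REX means were 6.95 ± 2.21, 5.59 ± 0.660 and 4.46 ± 0.887 CPM at 3, 6 and 12 h, and those of DMSO 6.07 ± 1.33, 7.62 ± 1.24 and 5.76 ± 0.677 CPM (SD, n = 4). In light alone EGR1 went from 6.95 ± 0.419 to 5.27 ± 0.588 CPM (-0.40 ± 0.17, edgeR adjusted p = 0.0596), and the difference between these 2 arms was not called (-0.24 ± 0.24, edgeR adjusted p = 0.911). FOSL2 and IER5 rose (0.24 and 0.46), and the FOSL2 call was lost without replicate 1, 2 or 4 of either time (edgeR adjusted p up to 0.114). The IER2 call was also lost without T-REX 6 h replicate 1 (adjusted p = 0.0600 in edgeR). With the 2 times alone in the fit, neither the IER2 call nor the FOSL2 call held (edgeR adjusted p = 0.112 and 0.0776).

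Light alone had 0 called members at 6 h (25.3% of all genes). There 1 member had an unadjusted p of 0.05 or less, beside 37.3% of all genes, and DESeq2 called 0. At 12 h light alone had 2 called members (39.4%), IER5 and MYC (0.23 ± 0.08). Probe alone had 1 at 6 h (21.5%), MYC, which fell (-0.24 ± 0.09), and 3 at 12 h (42.3%), FOSL2 (0.28), JUN (0.53) and IER5. DMSO had 2 at 6 h (16%), JUN (0.68 ± 0.18) and IER5, and 4 at 12 h (38.8%), JUN (0.51), JUND (0.75), IER5 and MYC (0.23), all higher. These shares of members lay at or below those of all genes except in DMSO at 6 and 12 h. Over all 10 members the median change at 6 h was -0.13 in T-REX, -0.10 in light alone, 0.21 in probe alone and 0.50 in DMSO. The light alone call of MYC was lost without replicate 1 or 4 of 3 h or replicate 1 or 3 of 12 h (edgeR adjusted p up to 0.129), and the probe alone call of MYC without 3 h replicate 1 or 2 or 6 h replicate 1, 3 or 4 (up to 0.133). That of JUN in probe alone was lost without 12 h replicate 3 (edgeR adjusted p = 0.0549). In DMSO at 12 h, the JUN call was lost without 3 h replicate 2 or 4 or 12 h replicate 1, that of JUND without 3 h replicate 1, 2 or 4 or 12 h replicate 1 or 3, and that of MYC without 3 h replicate 2 or 4 or 12 h replicate 1 or 2 (edgeR adjusted p up to 0.0736, 0.169 and 0.0887). The JUND call in DMSO also ended with the 2 times alone in the fit (edgeR adjusted p = 0.0585). JUN in DMSO went from 53.1, 46, 57.7 and 47.7 CPM at 3 h to 85.1, 68.3, 106 and 69.6 CPM at 6 h, without overlap.

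**Figure D2:**
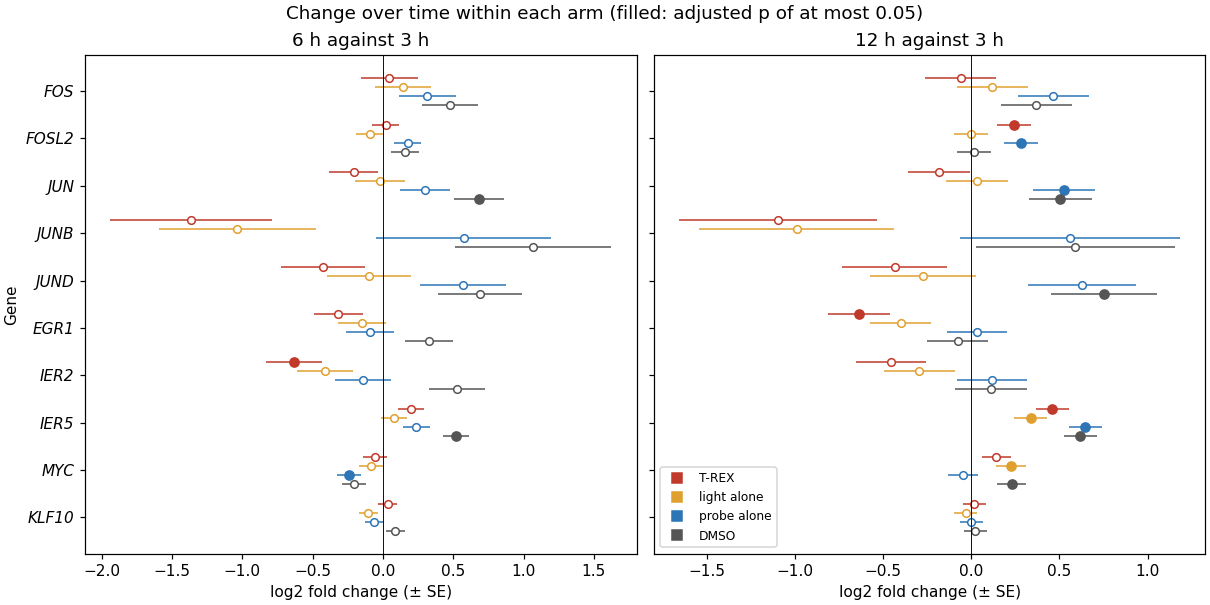
Log2 fold change (x axis, ± SE) of each gene (y axis) at 6 h and 12 h against 3 h within each arm; filled points had an edgeR adjusted p of at most 0.05. IER5 is filled and above 0 in all 4 arms at 12 h, and EGR1 at 12 h is at -0.64 in T-REX (filled) and -0.40 in light alone (open).

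Whether the T-REX effect itself differed between times was tested as an interaction. No member was called in any of the 6 interaction comparisons: for 6 h minus 3 h with light alone, with probe alone or with DMSO as the control (0%, 0% and 0.0136% of all genes), or for 12 h minus 3 h (0.0204%, 0.0681% and 0.00681%). In the same order, 0, 3, 6, 0, 4 and 4 members had an unadjusted p of at most 0.05. The shares of all genes were 4.57%, 8.20%, 15.4%, 7.37%, 13.4% and 9.70%. DESeq2 called 1 member, JUN, for 6 h minus 3 h against DMSO, and its share of all genes is not given here. IER2 had the lowest adjusted p in edgeR, 0.0859, for a difference of -1.16 ± 0.28 between 6 and 3 h against DMSO. JUNB had -2.43 ± 0.80 there and JUN -0.89 ± 0.25. For EGR1 at 12 h minus 3 h the difference was -0.67 ± 0.24 against probe alone (edgeR adjusted p = 0.224).

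The members did not move as 1 block from library to library. After the mean of each arm and time was taken off, the log2 CPM of JUNB and JUND correlated at r = 0.84 over the 48 libraries, JUN and JUNB at 0.86 and JUN and JUND at 0.82. IER2 ran at 0.68 with JUN and 0.61 with JUNB. By contrast KLF10 ran at -0.32 with JUND and -0.21 with JUNB. Of 45 pairs, 11 had r above 0.5 and the median was 0.32. These correlations are descriptions, since the points share libraries and depth.

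The libraries also differed in base composition, and this moved with the same genes. A GC index, defined after seeing the data, was taken for each library as the median deviation of the 10% of well-measured genes with the highest transcript GC content (1012 genes, at least 59.3% GC) minus that of the 10% with the lowest (1012 genes, at most 37.9%). It ranged from -0.52 to 0.46 on the log2 scale. At 3 h it read -0.52, -0.19, 0.46 and 0.27 in T-REX and -0.12, 0.17, 0.16 and -0.20 in light alone, negative in the libraries with low JUNB and positive in those with high JUNB. Over the 16 libraries of 3 h, r with the index was 0.90 for JUNB, 0.88 for EGR1, 0.86 for IER2, 0.85 for JUND, 0.85 for JUN and 0.77 for FOS. It was 0.72 for MYC, 0.63 for FOSL2, 0.55 for IER5 and -0.04 for KLF10. Such r values were not particular to the members, since over all 48 libraries 19.3% of well-measured genes had r above 0.5 with the index. At 6 h, r with the index was 0.49 for JUNB, -0.08 for JUND and 0.89 for IER2, and at 12 h 0.17, -0.08 and -0.03. The longest transcripts of JUND (69.7% GC), JUNB (64.9%) and IER2 (61.7%) were above the median of 47.2% over all genes, and KLF10 was at 47.2%. After the index was regressed out, 3 of the 11 pairs stayed above 0.5, JUN and JUNB at 0.76, JUNB and JUND at 0.82 and JUN and JUND at 0.80. IER2 then ran at 0.42 with JUN and 0.31 with JUNB, and EGR1 at 0.29 with JUNB, against 0.52 before. With a correction for GC content in the fit, the calls of JUNB at 6 h and JUND and KLF10 against DMSO were kept (edgeR adjusted p from 0.00400 to 0.0473).

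Among all other genes, those with a pattern most like FOS over the 48 libraries were DGAT1 (r = 0.63), NR1H2 (0.62) and ZC3H4 (0.61). JUN ran most like DPM3 (0.83), MID1IP1 (0.82) and BRD3 (0.81). EGR1 ran most like MRPL4 (0.67), OTUB1 (0.67) and MRPS12 (0.67), and MYC most like NUP210 (0.76), NPRL3 (0.73) and ACTG1 (0.72). JUNB had the closest match of any member, RBM38 at 0.94, named after its values were seen.

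Other genes of the pathway were read over the same 9 T-REX comparisons, in which 2.32% of all gene comparisons were called. None of the 14 SRF, ELK and CREB activators was called by edgeR in any, while DESeq2 called 2 and limma-trend 0. Of 126 gene comparisons, 12 had an unadjusted p of at most 0.05. The share of all genes at that level ran from 6.56% (probe alone, 6 h) to 26.9% (DMSO, 12 h). Their median log2 fold change ran from -0.09 to 0.04 over the 9 comparisons, where that of all genes ran from -0.00185 to 0.0309. Of 23 genes of the MAP kinase cascade, 10 calls were made in 207 gene comparisons (4.83%), all lower, and 8 of them were MAP2K6, which encodes a kinase that activates p38. MAP2K6 fell against all 3 controls at 6 and 12 h, from -0.37 ± 0.08 (DMSO, 6 h) to -0.61 ± 0.08 (light alone, 12 h), and against probe alone and DMSO at 3 h (-0.55 and -0.47), with edgeR adjusted p from 5.95e-05 to 0.0490. Among 13 feedback inhibitors of the cascade, 4 calls were made in 117 gene comparisons (3.42%). All were lower and all were SPRY1, an inhibitor of receptor signalling to this cascade. They were at 3 h against probe alone and DMSO (-0.44 and -0.49) and at 12 h against light alone and DMSO (-0.43 and -0.44). The medians ran from -0.06 to 0.01 for the cascade and from -0.08 to 0.11 for its inhibitors.

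Of 31 other immediate early genes, 10 calls were made in 279 gene comparisons (3.58%, beside 2.32% of all genes), 5 higher and 5 lower. PPP1R15A, which encodes a stress-induced phosphatase subunit, rose at 3 h against probe alone and DMSO (0.38 ± 0.07 and 0.25 ± 0.07) and was -0.01 against light alone. It also rose at 12 h against DMSO (0.54). BHLHE40, which encodes a transcriptional repressor, fell at 12 h against light alone and probe alone (-0.38 and -0.33), with -0.20 against DMSO. The list's median ran from -0.20 to 0.15 over the 9 comparisons. The 10 AP-1 dimer partners in the tables gave 4 calls in 90 gene comparisons (4.44%), 3 higher and 1 lower, with a median from -0.11 to 0.26.

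On the MYC side, 10 genes of the MAX network gave 4 calls in 90 gene comparisons (4.44%). All were lower and all were MXI1, which encodes a MAX partner that opposes MYC. They were at 3 h against probe alone and DMSO (-0.24 and -0.24) and at 12 h against light alone and DMSO (-0.42 and -0.38). Of 18 MYC target genes, 15 calls were made in 162 gene comparisons (9.26%, beside 2.32% of all genes), 13 of them lower. Every call against light alone or probe alone was LDHA or TFRC. The other genes were called against DMSO only, MRTO4 and NPM1 at 3 h and CAD, GNL3, NPM1, POLR1B and WDR43 at 12 h. In these comparisons with DMSO, 5.99% and 10.9% of all genes were called. The medians ran from -0.10 to 0.08 for the network and from -0.16 to 0.01 for the targets. LDHA, a glycolytic enzyme, fell against all 3 controls at 12 h (-0.69, -0.63 and -0.72 in the order used above). TFRC, the transferrin receptor, fell against all 3 at 12 h (-0.45, -0.39 and -0.61) and against probe alone and DMSO at 3 h. MYC itself was not called in these comparisons. SMAD6, an inhibitory SMAD on the list of TGF-beta early genes with KLF10, fell at 12 h against light alone and DMSO (-0.57 and -0.72). The 10 genes of that list gave 7 calls in 90 gene comparisons (7.78%, beside 2.32% of all genes), 2 higher and 5 lower. Of these calls, 2 were KLF10 itself. Apart from SMAD6 against light alone, every call was against DMSO at 3 or 12 h, where 5.99% and 10.9% of all genes were called. The list's median ran from -0.18 to 0.05.

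NCBP1 counts, which may hold reads of the transfected construct, were themselves higher in T-REX than in DMSO at 3 and 12 h (0.50 ± 0.12 and 0.73 ± 0.13), and than in light alone at 6 h (0.80 ± 0.14). Against probe alone they had 0.25, -0.19 and -0.04 at 3, 6 and 12 h, none called. The values against light alone at 3 and 12 h (0.30 and 0.51) and DMSO at 6 h (0.44) were not called either. The part of this difference in the results on the immediate early genes was not tested.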

How the data were processed

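RNA of HEK293T cells was read on an Illumina sequencer after stranded library preparation (TruSeq, with rRNA depletion per the Methods) and bcl2fastq. The authors deposited counts per gene that were not normalized, 1 column per library, and these were tested. The log2 CPM that the authors deposited served for 1 alternative, and so did the 2 deposited scores of unwanted variation (RUV) per library, whose method is not stated. Their table of log2 CPM with these scores removed was not used here. The study's reporting summary names cutadapt, TopHat and Cufflinks. The genome build, annotation and counter are not given in the sources used here. All 14685 genes passed the filter on low counts. Each time point (16 libraries), or all 48 libraries for time and interactions, was fitted with edgeR 4.0.16 (TMM, quasi-likelihood test, Benjamini-Hochberg over all genes, R 4.3.3), and a gene was called at an adjusted p of at most 0.05. SE is the log2 fold change over the root of F. CPM used TMM library sizes, with a prior count of 2 on the log2 scale. The checks were limma 3.58.1 and DESeq2 1.42.0, and the edgeR code and GC correction were tested on simulated data. Shares of all genes called are those of the main edgeR fit, and those of DESeq2 and limma-trend are not given here. Symbols matched 14648 identifiers, and GENCODE 29 gave length and GC content for 14556 (99.1%). Members and gene lists were chosen with earlier results of these data known. List genes are named where called in 1 direction against at least 2 controls at 1 time (at most 4 a list). For FOS, JUN, EGR1 and MYC, the 3 genes with the highest r are named. Listed genes absent from the tables, such as EGR2, EGR3, DUSP6 and MYCN, were not analysed here. The result of 1 further gene list is not reported here.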

Additional observations from a re-analysis of the deposited data

Results flagged for a closer look

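Of 120 groups of 4 libraries, 5 held a library far from the other 3, where chance alone flags about 1 in 20 groups. JUNB read 1.0 CPM in probe alone 6 h replicate 1, below the 1.64 to 1.74 CPM of the others. It read 2.44 CPM in T-REX 12 h replicate 4, above 1.24 to 1.39 CPM. EGR1 read 7.70 CPM in light alone 6 h replicate 4, above 5.64 to 5.93 CPM. IER2 read 7.03 CPM in light alone 12 h replicate 4, above 5.24 to 5.53 CPM. IER5 read 27.9 CPM in DMSO 6 h replicate 2, below 28.7 to 28.8 CPM.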

How the results depend on the processing

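Over 32 comparisons, the 21 calls of a member kept their direction in every setting run, and no setting reversed one. RLE factors, no filter on low counts, limma-trend on the deposited log2 CPM (18 comparisons) and the replicate block left every count of called members as it was. Replicate numbers did not pair the libraries throughout. The r of same-numbered deviations ranged from -0.636 to 0.572 over 72 pairs, 31 above 0.1. Of 48 libraries, 16 correlated best with their own number. In T-REX and probe alone at 6 h all 4 pairs were above 0.1 (0.10 to 0.474). The replicate block gave 0 called members there, as did the fit without it. Replicates 2 to 4 of light alone at 6 h also ran at 0.22 to 0.44 with T-REX and 0.28 to 0.41 with probe alone. Replicate 1 of light alone had -0.05 and -0.06 there. At 3 h, replicate 3 ran at 0.14 to 0.57 in each pair of arms. What these libraries shared was not tested. With the replicate block, JUNB against DMSO at 6 h had an edgeR adjusted p of 0.0185. With the RUV factors as covariates, called members were 1, 5 and 3 for T-REX in the order light alone, probe alone, DMSO at 3 h, 1 for light alone against DMSO and 3 for light alone against probe alone at 3 h. They were 5 for T-REX against DMSO, 4 for light alone against DMSO and 1 for probe alone against DMSO at 6 h, and at 12 h 1 and 2 for T-REX against light alone and probe alone, then 1, 3 and 3 for light alone against DMSO, probe alone against DMSO and light alone against probe alone. With DESeq2 they were 1, 1 and 2 for T-REX at 3 h, 3, 3 and 1 for T-REX, light alone and probe alone against DMSO at 6 h, 1 each at 12 h for T-REX against light alone, T-REX against probe alone and light alone against probe alone, and 1 for the interaction with DMSO at 6 h. With a correction for GC content, chosen after seeing the data, they were 1, 1 and 2 at 3 h, 3 against DMSO at 6 h, and 1 at 12 h both for T-REX against light alone and for light alone against probe alone. With the 2 groups alone in the fit they were 0 for T-REX against DMSO at 3 and 12 h, 1 each for T-REX against light alone and probe alone at 12 h, 0 for probe alone against DMSO and 2 for light alone against probe alone at 12 h, 0 for T-REX at 6 h against 3 h, 3 and 5 for probe alone at 6 and 12 h against 3 h, and 4 for DMSO at 6 h against 3 h. The cause was not tested. The shares of all genes called under these settings are not given here, so these counts have no background beside them. Leaving out 1 library gave 0 to 1 called members for T-REX against each control at 3 h, 0 to 0 against light alone and probe alone and 0 to 2 against DMSO at 6 h, and 0 to 1, 0 to 1 and 0 to 3 at 12 h. Between controls it gave 0 to 0 at 3 h, 0 to 1 against DMSO at 6 h, and 0 to 1, 0 to 3 and 0 to 2 at 12 h for light alone against DMSO, probe alone against DMSO and light alone against probe alone. Over time it gave 0 to 3 and 2 to 4 in T-REX, 0 to 1 and 1 to 3 in light alone, 0 to 2 and 2 to 4 in probe alone, and 2 to 4 and 1 to 4 in DMSO at 6 and 12 h, and for interactions 0 to 2 with DMSO at 6 h and 0 otherwise. JUNB and FOS had the lowest counts, 16 to 211 and 53 to 143 reads a library, and DESeq2 gave no adjusted p for JUNB in some comparisons.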
